A study of Rattus norvegicus with 10 samples.

Results

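Expression of 10 genes that define microglia, or that belong to the Trem2 receptor pathway, was followed in left hippocampi from female TgF344-AD rats. They are Csf1r, Cx3cr1, P2ry12 and Tmem119, which mark homeostatic microglia, Aif1, Itgam and Spi1, which mark microglia and other myeloid cells in any state, and Trem2, Tyrobp and Cd68, which belong to reactive or phagocytic microglia. They were taken by name, and all 10 are among the 17168 gene symbols of the table and among the 11791 genes that passed a filter on low counts. TgF344-AD rats carry mutant human amyloid precursor protein and presenilin transgenes under the mouse prion protein promoter, and every animal here carries them. The untreated group was 5 females on ordinary rodent chow. The RG2833 group was 5 females on chow that held 750 mg RG2833 per kg, given for 6 months starting at 5 months. RG2833 inhibits the histone deacetylases HDAC1 and HDAC3, and a blue food dye told the 2 chows apart. All 10 rats were killed at 11 months after perfusion with buffer, which removes most blood from the vessels. Rats without the transgenes are not analysed here, so the values describe the drug against no drug within the disease model.

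Microglia are the resident macrophages of the brain. They depend on the colony stimulating factor 1 receptor for survival, and they survey the tissue through receptors for the neuronal chemokine fractalkine and for released nucleotides. Around amyloid plaques they lower several of these surveying genes and raise a programme that needs TREM2, a lipid receptor that signals through the adaptor TYROBP (DAP12) and the kinase SYK. The rule behind the gene choice therefore sets homeostatic against reactive genes, and the drug group against the untreated group.

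The transcription factor PU.1, encoded by Spi1, binds purine-rich sites with a GGAA core and controls many myeloid genes. RefSeq (GRCr8) promoter windows, from 250 bases before to 50 bases after a gene's start, were matched by symbol for 5 of the 10 genes (Csf1r, Cx3cr1, Itgam, Trem2 and Cd68). The letters GAGGAA, on either strand (TTCCTC on the other), were present in 4 of these 5 windows, all but that of Cx3cr1, and in 27.6% of all 33469 windows. The stretches that lie before every annotated start of the gene are shown for Itgam, Trem2 and Cd68, because they hold such a match close to a gene whose level is measured below. Capitals mark the match, and each stretch is read 5′ to 3′ on the gene's strand.
Itgam, chr1:192089342-192089495, plus strand: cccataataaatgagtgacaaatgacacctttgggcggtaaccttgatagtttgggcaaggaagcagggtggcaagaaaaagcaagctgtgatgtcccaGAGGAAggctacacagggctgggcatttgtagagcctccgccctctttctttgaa
Trem2, chr9:20151798-20152029, minus strand: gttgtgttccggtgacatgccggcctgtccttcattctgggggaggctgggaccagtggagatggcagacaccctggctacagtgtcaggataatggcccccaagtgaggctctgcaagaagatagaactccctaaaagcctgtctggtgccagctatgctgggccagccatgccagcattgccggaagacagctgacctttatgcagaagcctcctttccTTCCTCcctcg
Cd68, chr10:54882442-54882691, minus strand: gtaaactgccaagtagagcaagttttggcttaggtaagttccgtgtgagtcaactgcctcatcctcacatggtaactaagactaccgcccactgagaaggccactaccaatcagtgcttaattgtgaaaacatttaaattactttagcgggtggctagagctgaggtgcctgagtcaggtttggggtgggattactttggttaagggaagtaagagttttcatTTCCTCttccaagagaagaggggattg
The match begins 55 bases before the first annotated start of Itgam, 11 bases before that of Trem2 and 27 bases before that of Cd68. A match of 6 letters is a description of the sequence and not a binding site. Aif1, P2ry12, Tmem119, Tyrobp and Spi1 are named only.

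Total estimated counts ran from 8764266 to 11311673 per library, and the 10 genes had between 48 (Cd68) and 1684 (Csf1r) estimated counts in a library. The value of 3 counts, between 0.268 and 0.343 CPM (the count over the library size after TMM scaling), lies far below each of them. In bulk tissue, fewer microglia and less RNA per microglial cell cannot be told apart. Ribosomal RNA took a share of the counts that was 2.70% to 5.36% in untreated and 1.13% to 1.96% in RG2833 animals, so this quality measure separated the groups completely. Untreated replicate 1 stood apart in choroid plexus genes, with a summed level of 2466 CPM against 4.58 to 44.9 CPM in the other 9 animals. Excitatory neuron markers were present in all animals, as the hippocampal label implies, with a summed level between 2252 and 4485 CPM.

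Of the 10 genes, 1 passed the threshold of 0.05 on the adjusted p (quasi-likelihood test of edgeR, with the Benjamini-Hochberg adjustment over 11791 genes). That gene was Aif1, which was lower in RG2833 animals. The log2 ratio used throughout is the log2 fold change of RG2833 over untreated. Among all tested genes 5.08% passed, 2.67% lower and 2.41% higher. An unadjusted p under 0.05 was found for 1 of the 10, again Aif1, and for 24.5% of all tested genes, with 12.7% of all tested genes lower. Aif1 stood just inside the threshold, at an adjusted p of 0.0496, and 0 of the 10 genes had groups that did not overlap, against 7.27% of all tested genes (3.47% with RG2833 below). The median log2 ratio of the 10 genes was -0.20, and that of all tested genes was 0.00 to 2 decimals (-0.0035). In 8 of the 10 the estimate lay below 0, against 50.6% of all tested genes. That count was 6 of 10 without untreated replicate 2, where Csf1r and Trem2 crossed 0, and 7 of 10 without RG2833 replicate 1, where Csf1r did. It was 2 of 10 (Aif1 and Itgam) with the ribosomal RNA share as a term, and 0 of 10 with a ribosomal protein term described below.

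**Figure D1:**
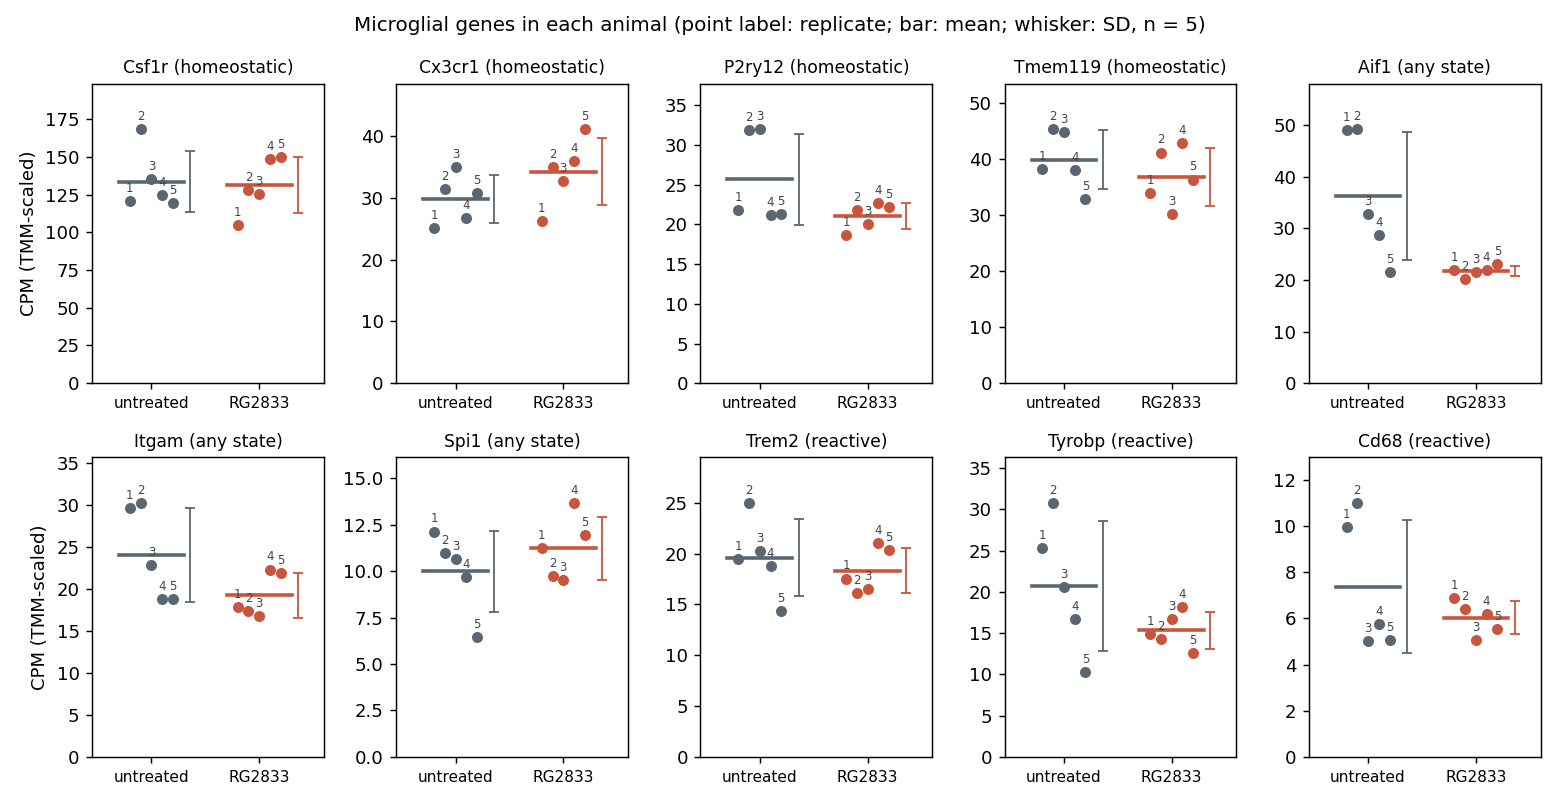
TMM-scaled CPM of the 10 microglial genes (vertical axes, starting at 0) in the 5 untreated and 5 RG2833 animals, with replicate numbers beside the points, a bar at the mean and a whisker of 1 SD. Aif1 lies between 20.2 and 23.0 CPM in all RG2833 animals and between 21.5 and 49.1 CPM in untreated animals, whereas the groups of Csf1r and Tmem119 largely cover the same range.

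Among the homeostatic receptors, Csf1r was at nearly the same level in both groups. This receptor tyrosine kinase, which microglia need to survive, was at 121, 168, 135, 125 and 120 CPM in untreated replicates 1 to 5 and at 105, 128, 125, 149 and 150 CPM in RG2833 replicates 1 to 5. Untreated replicate 2 was the highest of the 10 animals and RG2833 replicate 1 the lowest. The means were 134 ± 20.3 and 131 ± 18.5 CPM (SD, n = 5), a log2 ratio of -0.03 with an SE of 0.12 (adjusted p = 0.914 by edgeR). The 95% interval of the fold was 0.824 to 1.17.

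Cx3cr1, the receptor of the neuronal chemokine fractalkine, had the highest estimate of the 10 in the fit of all animals without covariates. Its level was 25.2, 31.5, 35.0, 26.7 and 30.8 CPM in untreated animals and 26.2, 35.1, 32.8, 36 and 41.1 CPM in RG2833 animals. RG2833 replicates 2, 4 and 5 lay above the highest untreated animal, replicate 2 barely, and the other 2 lay inside the untreated range. The log2 ratio was 0.20 ± 0.12 (SE), with an interval of -0.07 to 0.46, and it did not pass (adjusted p = 0.345 by edgeR). Leaving out 1 animal moved it between 0.12 and 0.28. Without untreated replicate 1 it was 0.14, below the 0.24 of Spi1.

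P2ry12, a receptor for ADP that guides microglial processes to injury, was at 21.8, 31.9, 32, 21.2 and 21.4 CPM in untreated animals. In RG2833 animals it was at 18.6, 21.8, 20.1, 22.7 and 22.2 CPM. Untreated replicates 2 and 3 were high, and the other 3 untreated animals lay among the RG2833 animals. The log2 ratio of -0.29 ± 0.14 (SE) did not pass (adjusted p = 0.224 by edgeR). Tmem119, a membrane protein that sets microglia apart from other macrophages, ranged from 32.8 to 45.2 CPM in untreated and from 30.1 to 42.7 CPM in RG2833 animals, a log2 ratio of -0.11 with an SE of 0.12 (adjusted p = 0.581 by edgeR). With 1 animal left out this ratio lay between -0.18 and -0.05, and it was 0.29 with the ribosomal RNA term.

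Aif1 encodes IBA1, a calcium-binding protein of the actin cytoskeleton and the usual histological marker of microglia. Its level in untreated animals was 49.1, 49.1, 32.8, 28.7 and 21.5 CPM, a range of 2.29 times. In RG2833 animals it was 21.8, 20.2, 21.6, 21.8 and 23.0 CPM, a range of 1.14 times. Untreated replicates 1 to 4 lay above each RG2833 animal, and untreated replicate 5 lay among them. Aif1 fell from a mean of 36.2 ± 12.4 to one of 21.7 ± 0.986 CPM (SD, n = 5), a log2 ratio of -0.74 with an SE of 0.20 (adjusted p = 0.0496 by edgeR), or 0.60 times with a 95% interval of 0.447 to 0.805. The call was lost in 8 of 10 fits that each left out 1 animal, where the log2 ratio ran from -0.88 to -0.60 and the adjusted p from 0.00891 (without untreated replicate 5) to 0.11 (without RG2833 replicate 5). When the ribosomal RNA share entered the fit as covariate, the estimate was -0.46 ± 0.39 (SE; adjusted p = 1.00 by edgeR).

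Itgam, the alpha subunit of complement receptor 3 (CD11b), was at 29.6, 30.3, 22.9, 18.8 and 18.8 CPM in untreated animals. It was at 17.8, 17.4, 16.8, 22.3 and 22.0 CPM in RG2833 animals, and each of these lay below the untreated median. The log2 ratio was -0.32 with an SE of 0.16 (adjusted p = 0.225 by edgeR). Spi1, which encodes PU.1, the transcription factor that myeloid cells need, had an estimate above 0. It ranged from 6.45 to 12.1 CPM in untreated and from 9.51 to 13.7 CPM in RG2833 animals, a log2 ratio of 0.17 with an SE of 0.17 (adjusted p = 0.566 by edgeR). It was 0.05 without untreated replicate 5, the animal at 6.45 CPM.

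Trem2, the lipid receptor of the reactive programme, was at 19.4, 25.0, 20.3, 18.8 and 14.4 CPM in untreated animals. In RG2833 animals it was at 17.6, 16.1, 16.5, 21.0 and 20.4 CPM. All RG2833 values lay inside the untreated range. The means were 19.6 ± 3.78 and 18.3 ± 2.24 CPM (SD, n = 5), a log2 ratio of -0.10 with an SE of 0.14 (adjusted p = 0.7 by edgeR), and the 95% interval of the fold was 0.76 to 1.15.

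Tyrobp, the adaptor through which TREM2 signals, varied more than Trem2. It was at 25.3, 30.8, 20.6, 16.7 and 10.3 CPM in untreated animals, a range of 3.00 times, and at 14.9, 14.3, 16.7, 18.2 and 12.6 CPM in RG2833 animals. Each RG2833 animal lay below the untreated median, and all lay inside the untreated range. The log2 ratio of -0.43 ± 0.23 (SE) did not pass (adjusted p = 0.269 by edgeR), and its interval ran from -0.94 to 0.07. Over the fits that left out 1 animal it ran from -0.60 (without untreated replicate 5; adjusted p = 0.0534 by edgeR) to -0.25 (without untreated replicate 2). It was 0.04 with the ribosomal RNA term and 0.73 with the ribosomal protein term (SE 0.16; adjusted p = 0.229 by edgeR). The ratio of Tyrobp to Trem2 CPM within an animal was 1.03 ± 0.242 in untreated and 0.845 ± 0.144 in RG2833 animals (SD, n = 5), a difference smaller than the untreated SD.

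Cd68, a glycoprotein of the lysosome and a marker of phagocytosis, was at 9.95, 11.0, 5.00, 5.77 and 5.08 CPM in untreated animals. It was at 6.87, 6.42, 5.06, 6.21 and 5.54 CPM in RG2833 animals. Untreated replicates 1 and 2 were high and the other 8 animals formed a single range. The log2 ratio was -0.28 with an SE of 0.23 (adjusted p = 0.483 by edgeR). Over the fits that left out 1 animal it ran from -0.40 (without untreated replicate 3) to -0.09 (without untreated replicate 2), and it was -0.15 without untreated replicate 1. The ribosomal RNA and ribosomal protein terms gave 0.14 and 0.61.

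**Figure D2:**
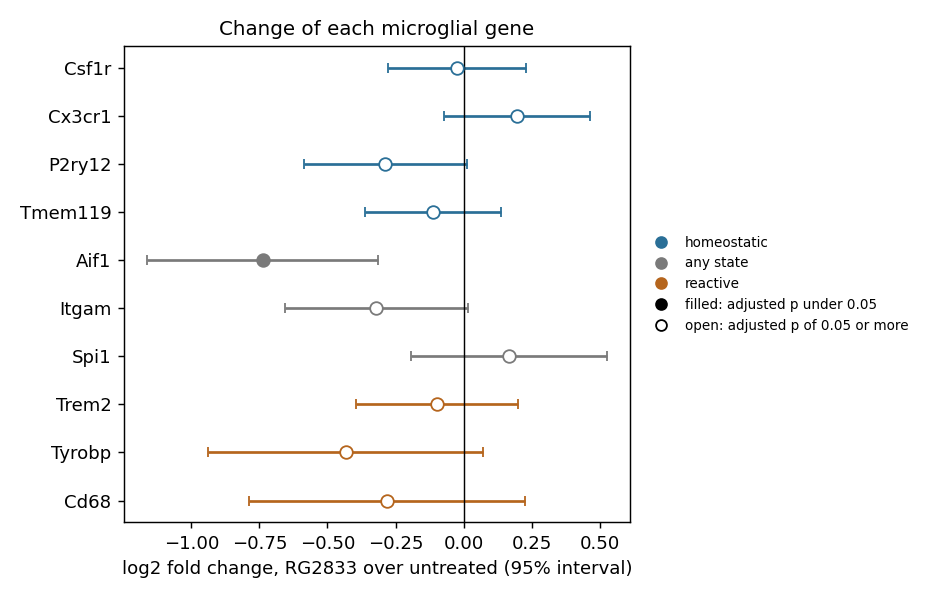
Log2 ratio (RG2833 over untreated, horizontal axis) of each of the 10 genes with its 95% interval, coloured by role and filled where the adjusted p is under 0.05. The interval of Aif1, from -1.16 to -0.31, is the only one that excludes 0.

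The homeostatic and reactive genes were then set against each other in each animal. The mean log2 CPM of the 4 homeostatic genes was 5.48 ± 0.20 in untreated and 5.43 ± 0.17 in RG2833 animals (SD, n = 5). That of the 3 reactive genes was 3.80 ± 0.44 and 3.59 ± 0.11. Homeostatic minus reactive was 1.22, 1.36, 1.98, 1.71 and 2.12 in untreated animals and 1.56, 1.95, 1.80, 1.82 and 2.05 in RG2833 animals, on the log2 scale. The RG2833 animals lay inside the untreated range, and the difference of the means, 0.16, was smaller than the untreated SD of 0.38. Without untreated replicate 1 the difference was 0.05, without untreated replicate 2 it was 0.08, and without untreated replicate 5 it was 0.27. No p is given for this difference, since it is a score over chosen genes.

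The spread between animals was also compared. In 7 of the 10 genes the SD of log2 CPM was larger in untreated animals, near the share among all tested genes, 75.6%. The ratio of the SDs (untreated over RG2833) was 7.84 for Aif1, 3.16 for Cd68, 2.94 for Tyrobp and 2.66 for P2ry12, and 0.356% of tested genes had a larger ratio than Aif1. For Csf1r, Cx3cr1 and Tmem119 the ratio was between 0.804 and 0.977. A ratio of at least 2 was found in 4 of the 10 genes and in 29.1% of all tested genes.

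Most pairs of the genes varied together when the deviations of both groups were pooled. After each group's mean was subtracted, 29 of the 45 pairs of genes had a Pearson correlation above 0.5 over the 10 animals, with a median of 0.62 and a lowest value of -0.35. Trem2 (Pearson r = 0.90, Spearman rho = 0.85) and Itgam (r = 0.88, rho = 0.95) followed the mean of the other 9 most closely, Trem2 first by r and Itgam first by rho, and Cx3cr1 least (r = 0.13, rho = 0.32). Untreated replicate 2 was the highest of the 10 animals in 7 of the genes, and untreated replicate 5 the lowest in 3. The mean of the 10 genes had an SD of 0.29 in untreated and 0.12 in RG2833 animals (log2 scale). The untreated animals therefore weigh most in these correlations, and pairs were not examined within RG2833 animals alone. These correlations share libraries and scaling, and they are a description of 10 animals.

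Genes outside the 10 were ranked by the same measure against the mean of the 10, over 11781 tested genes. The 10 nearest were Rps4x, Rpl41, Anxa3, Npc2, Rps29, Ctss, Tmem176b, Clic1, Pld4 and Rpl17, with Pearson r between 0.966 and 0.985 and Spearman rho between 0.915 and 1. In untreated animals alone their r was between 0.974 and 0.999. Ctss encodes the lysosomal protease cathepsin S of microglia and macrophages, and Npc2 a lysosomal cholesterol carrier. Rps4x, Rpl41, Rps29 and Rpl17 encode proteins of the cytosolic ribosome. Ribosomal protein genes were then looked at as a set, a choice made after these values were seen. The median r of 77 such genes was 0.91, against 0.58 for 118 other genes of the microglial lists described below and 0.00 to 2 decimals (0.0026) for all tested genes. Of the 100 nearest genes, 39 were ribosomal protein genes and 13 were on the microglial lists. These lists also hold genes that neurons express, such as Cx3cl1, Fyn and Mef2a. The 2 sets were not matched for abundance, so their medians do not rank microglial genes against ribosomal protein genes.

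The ribosomal protein mean was 8.06, 8.21, 7.93, 7.74 and 7.53 (mean log2 CPM) in untreated animals and 7.42, 7.42, 7.40, 7.5 and 7.36 in RG2833 animals, so it separated the groups. A fit that took this mean as a covariate was added once these values had been seen. In it the log2 ratio of Aif1 was 0.18 ± 0.16 (SE; adjusted p = 0.679 by edgeR), on the other side of 0. All 10 estimates lay above 0 in it, from 0.08 (P2ry12) to 0.73 (Spi1 and Tyrobp). With it 4 genes were called in the whole table and 0 of the 10. The part of the ribosomal protein level and of the ribosomal RNA share in the result for Aif1 cannot be told apart from the treatment, since both measures separate the groups.

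**Figure D3:**
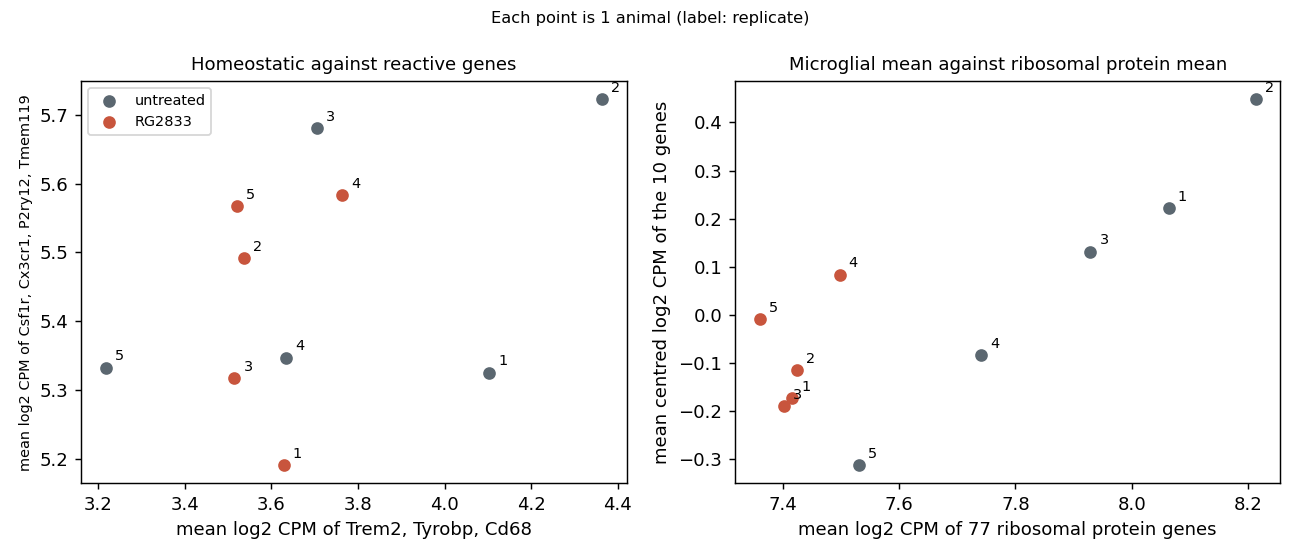
Each point is 1 animal, labelled by replicate. Left, mean log2 CPM of Trem2, Tyrobp and Cd68 (horizontal) against that of Csf1r, Cx3cr1, P2ry12 and Tmem119 (vertical). Right, mean log2 CPM of 77 ribosomal protein genes (horizontal) against the mean centred log2 CPM of the 10 microglial genes (vertical). Untreated replicate 2 is highest on all 4 axes, and the 5 RG2833 animals lie between 7.36 and 7.5 on the ribosomal axis.

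The span of a gene in the genome (GRCr8, used only as a property) also moved with the change. Over 10808 tested genes with a span, the Spearman correlation across genes between span and log2 ratio was 0.16, and genes are not independent replicates. In the shortest tertile of genes, those up to 14.2 kb, 4.58% were called lower, against 0.833% in the longest tertile. Of the 10 genes, Cd68, Tyrobp, Aif1, Trem2 and Tmem119 are in the shortest tertile, with estimates from -0.74 to -0.10. Cx3cr1, Spi1, Csf1r and P2ry12 are in the middle tertile, with estimates from -0.29 to 0.20, and Itgam, at -0.32, is in the longest. The part of gene length in these differences was not tested.

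Other genes tied to microglia by known function, some of them also or mainly expressed by other cell types, were read as lists. They stand beside a median of all tested genes of 0.00 (-0.0035). Of all tested genes 5.08% were called, 24.5% had an unadjusted p under 0.05 and 50.6% had an estimate below 0, and each list's counts are to be read against these shares. Of 18 tested genes of homeostatic microglia, edgeR called 0, as did DESeq2, limma-voom and limma trend, and 3 (16.7%) had an unadjusted p under 0.05, below the 24.5% of all tested genes, and the median log2 ratio was -0.07. That median was 0.05 with the ribosomal RNA term. Gpr34, a receptor for lysophosphatidylserine, was at 34.4 ± 8.23 and 24.6 ± 5.29 CPM (SD, n = 5; log2 ratio -0.49, SE 0.18, adjusted p = 0.118 by edgeR). Cst3, the protease inhibitor cystatin C, which astrocytes also express, had a log2 ratio of -0.29 with an SE of 0.13 (adjusted p = 0.198 by edgeR), and it was called without untreated replicate 5. For Ltc4s, leukotriene C4 synthase, and Selplg, the ligand of P-selectin, they were -0.42 and 0.04 (adjusted p = 0.275 and 0.86 by edgeR).

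Of 32 tested genes of microglia and macrophages in any state, 1 (3.12%) was called, Ctss, and 6 (18.8%) had an unadjusted p under 0.05, neither above the shares of all tested genes. The median log2 ratio was -0.23, and the estimate lay below 0 in 29 of 32 (90.6%, against 50.6%). The median was -0.10 without untreated replicate 2, -0.13 without untreated replicate 1 and -0.03 with the ribosomal RNA term. Genes of endothelial cells and pericytes had a like median, -0.21, and lay below 0 in 8 of 8, with 0 called. Other glia did not share it. Astrocyte genes had a median of -0.01 (4 of 8 below 0) and oligodendrocyte genes one of 0.10 (0 of 6). Genes of oligodendrocyte precursors had a median of -0.15 (3 of 4 below 0), and 0 were called in each of these lists. Ctss was at 395, 474, 347, 281 and 225 CPM in untreated and at 197, 216, 200, 228 and 207 CPM in RG2833 animals. As with Aif1, untreated replicate 5 lay among the RG2833 animals. Ctss fell by 0.72 on the log2 scale, with an SE of 0.16 (adjusted p = 0.0322 by edgeR), and kept the call in 2 of 10 fits that left out 1 animal. The actin-bundling Lcp1 and the actin regulator Nckap1l had log2 ratios of -0.40 and -0.46 (adjusted p = 0.0785 and 0.102 by edgeR). Lcp1 was called by DESeq2's Wald test and without untreated replicate 4, and Nckap1l without untreated replicate 5. The Fc receptor gene Fcgr3a and the actin regulator Coro1a had log2 ratios of -0.84 and -0.11 (adjusted p = 0.115 and 0.464 by edgeR). C1qa, the first chain of complement C1q, was at 173 ± 57.5 and 140 ± 14.1 CPM (SD, n = 5; adjusted p = 0.333 by edgeR).

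Of 23 tested genes of reactive microglia, 1 (4.35%) was called, Cd63, and 6 (26.1%) had an unadjusted p under 0.05, both near the shares of all tested genes. The median log2 ratio was -0.23. It was -0.14 without untreated replicate 2, -0.15 without untreated replicate 1 and -0.08 with the ribosomal RNA term. Cd63, a tetraspanin of late endosomes that many cell types express, fell from a mean of 84.8 ± 18.9 to one of 54.0 ± 5.31 CPM (SD, n = 5), a log2 ratio of -0.65 with an SE of 0.14 (adjusted p = 0.0268 by edgeR). It kept the call in 3 of 10 fits that left out 1 animal. Fabp5, a fatty acid carrier, was at 71.5 ± 9.75 and 56.0 ± 4.40 CPM and its groups did not overlap, but it did not pass (log2 ratio -0.35, SE 0.09, adjusted p = 0.0513 by edgeR). Fabp5 was called with library totals only, with a mean count of at least 50, by DESeq2's Wald test, and without untreated replicate 4 or untreated replicate 5. Timp2, an inhibitor of metalloproteinases, had a log2 ratio of -0.93 with an SE of 0.27 (adjusted p = 0.0644 by edgeR), and was called by DESeq2's Wald test and without untreated replicate 4. Cd83, a surface protein of activated antigen-presenting cells, had a log2 ratio of -0.33 with an SE of 0.14 (adjusted p = 0.174 by edgeR), and was called without untreated replicate 4. The abundant Apoe (-0.04), Fth1 (-0.18) and Ctsb (0.08) did not pass (adjusted p between 0.542 and 0.86 by edgeR). Another 9 genes of the reactive programme were too low to test, with at most 18 counts in a library. They are Cst7, Clec7a, Cd52, Msr1, Cybb, Lilrb4, Ccl3, Ccl4 and Ccl6.

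Of 17 tested partners of TREM2 and TYROBP, 1 (5.88%) was called, Fyn, near the share of all tested genes, and the median log2 ratio was -0.06. This Src family kinase, which neurons also express, was at 127, 129, 125, 151 and 127 CPM in untreated and at 164, 156, 167, 161 and 166 CPM in RG2833 animals, and the groups did not overlap. Fyn rose by a log2 ratio of 0.30 with an SE of 0.07 (adjusted p = 0.0309 by edgeR), and kept the call in 2 of 10 fits that left out 1 animal. Inpp5d, the lipid phosphatase SHIP1 of myeloid cells, had a log2 ratio of -0.22 with an SE of 0.16 (adjusted p = 0.412 by edgeR), and Adam17, a sheddase of TREM2, of -0.13 with an SE of 0.10 (adjusted p = 0.45 by edgeR). Clu, which encodes the lipoprotein clusterin, a ligand of TREM2, had one of 0.03 (adjusted p = 0.874 by edgeR). The guanine nucleotide exchange factor gene Vav3 and the adaptor gene Grb2 had log2 ratios of 0.46 and -0.04 (adjusted p = 0.273 and 0.745 by edgeR). Vav3 was called without untreated replicate 4.

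Of 10 tested ligands and restraint genes, edgeR called 0 and 2 (20.0%) had an unadjusted p under 0.05, against 24.5% of all tested genes, with a median log2 ratio of -0.02. Cx3cl1, the neuronal ligand of Cx3cr1, was at 538 ± 92.7 and 709 ± 45.8 CPM (SD, n = 5), a log2 ratio of 0.40 with an SE of 0.11 (adjusted p = 0.0526 by edgeR). It was called by DESeq2's Wald test, by limma-voom and by limma trend, and, together with Cd200, by edgeR without untreated replicate 4. Cd200, a neuronal ligand that restrains microglia, had a log2 ratio of -0.24 with an SE of 0.10 (adjusted p = 0.167 by edgeR), and Tgfb1, which maintains the homeostatic state, of -0.24 with an SE of 0.13 (adjusted p = 0.261 by edgeR). Tgfb3 and Sirpa, the receptor of the signal CD47, had log2 ratios of -0.37 and 0.10 (adjusted p = 0.318 and 0.395 by edgeR).

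Of 13 tested transcription factors, 1 (7.69%) was called, 3 had an unadjusted p under 0.05, and the median log2 ratio was 0.10. Mef2a, a MADS-box factor that neurons also express, rose from 63.5 ± 13.2 to 90.9 ± 11.4 CPM (SD, n = 5), and its groups did not overlap (log2 ratio 0.52, SE 0.13, adjusted p = 0.0456 by edgeR). Cebpb, a factor of myeloid activation, had a log2 ratio of 0.49 with an SE of 0.21 (adjusted p = 0.184 by edgeR), and was called without untreated replicate 4. Sall3 and Bhlhe40, both transcription factors, had log2 ratios of 0.36 and 0.33 (adjusted p = 0.203 and 0.256 by edgeR). Of 5 tested inflammatory mediators, 1 was called, and the median log2 ratio was 0.06. Il18 fell from 4.23 ± 1.19 to 2.12 ± 0.393 CPM (SD, n = 5), with groups that did not overlap (log2 ratio -0.99, SE 0.22, adjusted p = 0.0328 by edgeR). Ptgs2, the inducible prostaglandin synthase that neurons also express, had a log2 ratio of 0.82 with an SE of 0.28 (adjusted p = 0.0964 by edgeR). It was called higher by DESeq2's Wald test and without untreated replicate 4. Mef2a and Il18 each kept the call in 2 of 10 fits that left out 1 animal. Nlrp3, an inflammasome sensor, and Tgm2, a transglutaminase, had log2 ratios of -0.23 and 0.06 (adjusted p = 0.454 and 0.796 by edgeR). Il1b, Il1a, Tnf, Il6, Ccl2, Cxcl10, Nos2 and Il10, the other 8 mediators, were too low to test, with at most 30 counts in a library.

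**Figure D4:**
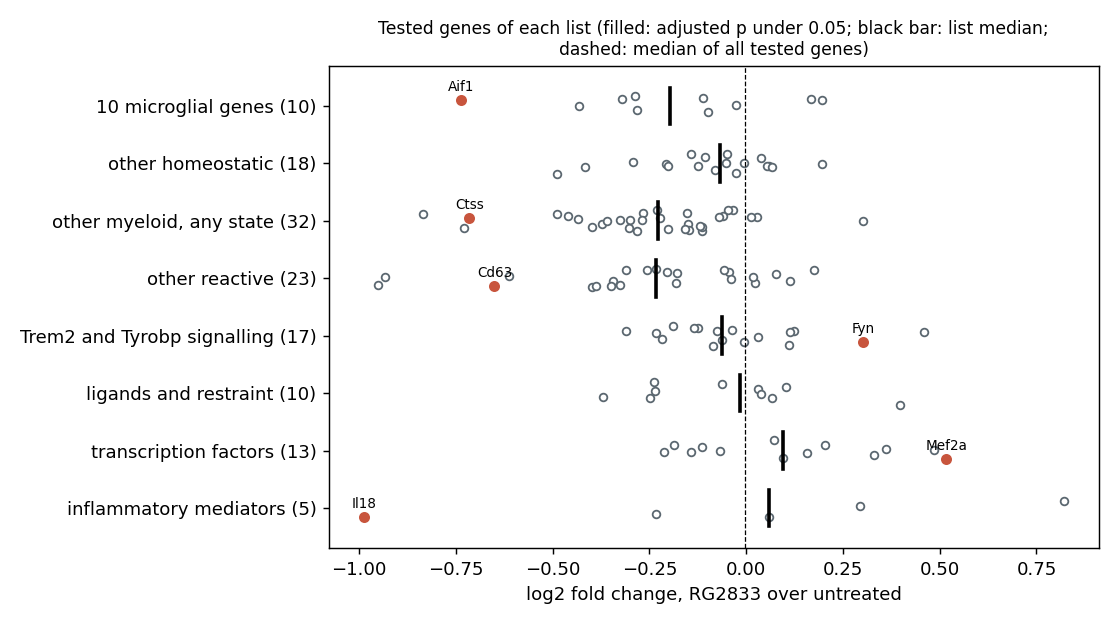
Log2 ratio (RG2833 over untreated, horizontal axis) of the tested genes of the 10 and of 7 microglial lists (lists of other cell types are not drawn), with the number tested in brackets, filled where the adjusted p is under 0.05. The black bar marks the list median and the dashed line the median of all tested genes. The 6 filled points are Aif1, Ctss, Cd63, Fyn, Mef2a and Il18.

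Markers of other cells that express some of these genes were read beside them. Macrophages of vessels and meninges share Aif1, Itgam, Csf1r and Cd68 with microglia. The summed level of 9 of their genes in the table was 17.2 to 21.2 CPM in untreated and 13.4 to 18.2 CPM in RG2833 animals. None of the 4 tested was called, their median log2 ratio was -0.39, and Siglec1 had a log2 ratio of -0.41 with an SE of 0.15 (adjusted p = 0.117 by edgeR). Lyve1, Mrc1 and Clec10a had adjusted p between 0.284 and 0.998 (edgeR). Of 3 tested genes of dividing cells, Ccnb1, Birc5 and Mki67, 0 were called, with adjusted p from 0.366 to 0.962 (edgeR). Of 16 genes of blood leukocytes in the table, 15 were too low to test, with at most 4 counts in a library each. The tested one, Cd3e, a chain of the T cell receptor complex, averaged 3.30 ± 5.65 CPM without and 6.99 ± 5.16 CPM with the drug (SD, n = 5; log2 ratio 1.05, SE 0.88, adjusted p = 0.483 by edgeR). The list's sum was 14.2 CPM in untreated replicate 4, 12.4 in RG2833 replicate 2 and 15.1 in RG2833 replicate 3, and 1.30 to 5.28 CPM in the other 7 animals. Elane, Cd79b and Ms4a1 were at 0 in all libraries. Untreated replicate 1, with its high choroid plexus level, had 49.1 CPM of Aif1, and untreated replicate 2, with a choroid plexus level of 11.7 CPM, had 49.1 CPM as well. With the choroid plexus level as covariate the log2 ratio of Aif1 was -0.63 with an SE of 0.19, and it did not pass (adjusted p = 0.0997 by edgeR). Summed excitatory neuron genes were 2252 to 3498 CPM in untreated and 3756 to 4485 CPM in RG2833 animals, so they too separated the groups. The sums of the other neuronal lists overlapped, at 5269 to 8006 and 7310 to 8816 CPM for genes of all neurons and at 411 to 766 and 428 to 581 CPM for genes of inhibitory neurons. Of 6 excitatory neuron genes 1 was called higher, Camk2a, a kinase of synapses (log2 ratio 0.67, SE 0.17, adjusted p = 0.0459 by edgeR), and of 6 genes of all neurons 1 was called higher, Rbfox3, which encodes NeuN (0.57, SE 0.14, adjusted p = 0.04 by edgeR). Both are named after their values were seen. The estimate lay below 0 in 2 of 6 genes of all neurons and in 5 of 6 of inhibitory neurons, with 0 of the latter called. Fyn and Mef2a, which rose as well, are expressed by neurons too, and the part of neuronal RNA in their change was not tested. Summed genes of endothelial cells and pericytes were 282 to 406 CPM in untreated and 262 to 306 CPM in RG2833 animals. The part of cell composition in the lower Aif1 level was not tested.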

How the data were processed

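RNA of the left hippocampus was measured in 10 female TgF344-AD rats, 5 a group, with 1 library a rat, as the series' design text and titles give them. Strand-specific mRNA libraries were made, per the labels' protocols. The submitters' processing notes name bcl2fastq 2.17, Bowtie2 2.1.0, RSEM 1.2.15, edgeR and the build rn6. The gene annotation is not given in the sources used here. The first deposited table holds expected counts of the authors, without normalization. The second deposited table holds a signal, the authors' TMM-normalized CPM.

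Columns were assigned to animals by the title in their heading. Expected counts were rounded and passed through filterByExpr of edgeR, with the groups given. Groups were compared with the quasi-likelihood test of edgeR (version 4.0.16, in R 4.3.3), using TMM scaling and no covariate. Adjustment was Benjamini-Hochberg over all tested genes. The SE is the log2 ratio over the square root of F. For log2 CPM the prior count was 2. The test was checked on simulated data. Across 20 pairs within groups, chi-square per degree of freedom was 4.73 to 38.1, so no library was counted as a repeat of another.

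The 10 genes and the lists were chosen with earlier results of these data known. Named list genes are those called, the 4 with the smallest p and the 3 most abundant of each list, and some of them are not reported here. The nearest genes are the 10 with the highest correlation, within groups, to the mean of the 10. Alternatives were other scalings and filters, DESeq2 1.42.0, limma-voom and limma trend (limma 3.58.1), a replicate block, covariates and leaving out each animal.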

Additional observations from a re-analysis of the deposited data

Results flagged for a closer look

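Dixon's test at the 95% level was applied to 120 groups of 5 values, from the 10 genes, the named list genes and the measures per animal. In 7 of them the most extreme animal exceeded the limit of 0.71, and about 6 would do so by chance. None of the 7 was among the 10 genes. Ltc4s was 9.69 CPM in untreated replicate 2, the other untreated animals being at 4.65 to 5.65 CPM. In RG2833 replicate 3 it was 6.51 CPM, the others being at 3.82 to 4.37 CPM. Fyn stood at 151 CPM in untreated replicate 4 and at 125 to 129 CPM in the rest of its group. Adam17 was low in RG2833 replicate 1, at 15.2 CPM, with the rest at 20.6 to 21.7 CPM. Grb2 was low in RG2833 replicate 5, at 293 CPM, with the rest at 315 to 320 CPM. Il18 was high in RG2833 replicate 3, at 2.79 CPM, with the rest at 1.81 to 2.09 CPM. Birc5 was high in untreated replicate 2, at 2.1 CPM, with the rest at 1.12 to 1.30 CPM.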

How the results depend on the processing

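The number of the 10 genes that passed was 1 (Aif1) under DESeq2 size factors, library totals only, a mean count of at least 50, DESeq2's Wald test and an adjusted p under 0.1. It was 0 with no filter on low counts (more genes tested; Aif1 log2 ratio -0.74, adjusted p = 0.0507), with limma-voom (-0.66, 0.0784), limma trend on the deposited values (-0.65, 0.0652 and -0.67, 0.0654 with pseudocounts 1 and 0.1), the choroid plexus covariate (-0.63, 0.0997), the ribosomal RNA covariate (-0.46, 1.00) and the ribosomal protein covariate. It ran from 0 to 1 when 1 animal was left out, and was 1 only without untreated replicate 4 or untreated replicate 5. Aif1 kept its direction in each alternative except the ribosomal protein covariate, where its log2 ratio was 0.18. The cause was not tested, and that covariate was chosen after seeing the data.

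The labels give no sign that a number links an untreated to an RG2833 rat. Deviations of same-numbered rats had correlations from -0.319 to 0.151, with a mean of -0.066. So few values cannot exclude a batch shared by number, and the numbers were not used as pairs in the comparison of the groups. With the replicate block 0 of the 10 genes passed (Aif1 log2 ratio -0.68, adjusted p = 0.0989 by edgeR). The homeostatic minus reactive difference was 0.16 there too, a value the block cannot change, since each number occurs once in each group. Over its 18 alternatives that difference ran from 0.05 to 0.27. The count of all called genes, 599, was 1295 with DESeq2's Wald test, 180 with the replicate block, 192 with the choroid plexus covariate, 2 with the ribosomal RNA covariate, 4 with the ribosomal protein covariate and 98 to 1556 when 1 animal was left out. The median of the mediator list moved from 0.06 to -0.24 with no filter, which adds genes, to 0.28 with a mean count of at least 50, which removes genes, and to 0.15 without untreated replicate 2, and that of the ligand list from -0.02 to 0.13 with the ribosomal RNA covariate. The medians of the any-state and reactive lists, -0.23 each, were -0.31 to -0.03 and -0.32 to -0.08 over 21 alternatives, and that of the homeostatic list, -0.07, was -0.14 to 0.05. The 5 genes called on the microglial lists were each called in 9 to 11 of 21 alternatives. Depth limits Cd68 most, with 48 to 110 counts a library.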
